A study of Caenorhabditis elegans with 2 samples.

Results

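cdk-5, cdka-1, pct-1 and cyy-1 are 4 Caenorhabditis elegans genes of kinases and their partners, an activator and a cyclin. They act in the placement of synapses and in the rewiring of the DD motor neurons. They were chosen by name out of 19973 nuclear protein-coding genes, with the knowledge that cdk-5 holds a peak of the thresholded list, so that peak is described here and not tested. The data are ChIP-seq libraries against UNC-30, the Pitx-type homeodomain factor that gives the D-type motor neurons, DD among them, their GABAergic identity. There was 1 group with 2 libraries, biological replicates 1 and 2, of whole L1 larvae of mixed sex and unstated age. Both came from strain OP395, which carries the mutation unc-119(tm4063) and the transgene wgIs395, with a C-terminal GFP-FLAG tag on UNC-30. The promoter of the transgene is not stated in the labels. The labels name UNC-30 as the antibody target and give no second strain, stage or treatment, so every value below describes these libraries and no test between conditions exists. Only a few neurons of each larva make UNC-30, and cell types cannot be told apart in samples of whole animals.

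The DD neurons are born in the embryo and first contact ventral muscle. Around the end of the L1 stage they take down these synapses and form new ones on dorsal muscle without a change in the shape of the cell. CDK-5 is a neuronal cyclin-dependent kinase, and CDKA-1 is its p35-type activator. PCT-1 is a kinase of the PCTAIRE type, and CYY-1 is cyclin Y, its partner. In the worm, both pairs keep presynaptic components in the axon. In the DD neurons CYY-1 is needed to remove the old synapses, and CDK-5 promotes transport of the material to the new sites.

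The cdk-5 peak lay in a short gap between gene starts that face away from each other. cdk-5 (WBGene00000407, ce11 chromosome III, 13464687 to 13466342, minus strand) has 1 annotated transcript. kel-3 (13464820 to 13471350, plus strand), a gene named for its kelch repeats, overlaps it on the opposite strand. Of the 4 kel-3 transcripts, 2 start inside the last exon of cdk-5 and 2 start at 13466578, upstream of cdk-5. The peak's summit, at 13466407, was 65 bp upstream of the cdk-5 5′ end, 171 bp upstream of the inner kel-3 starts, and inside the first intron of the longer kel-3 transcripts. The 235 bases of the gap (chrIII:13466343-13466577, minus strand) are shown because they hold the summit, at base 171 from the left. Capitals mark ATGCGC and GACGCA, 6-mers that recur in the thresholded peaks.
cdk-5 and kel-3 gap: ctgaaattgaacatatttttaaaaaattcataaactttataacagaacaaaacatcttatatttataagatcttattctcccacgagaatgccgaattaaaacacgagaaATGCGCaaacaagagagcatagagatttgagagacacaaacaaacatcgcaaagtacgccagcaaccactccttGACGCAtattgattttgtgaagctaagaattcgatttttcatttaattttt

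TAATCC, the core sequence bound by homeodomains such as that of UNC-30, is absent from these letters on both strands. Its shorter form TAATC was in the window around the summit once, 91 bp away and inside cdk-5, beyond the printed bases. The search covered either strand, up to 100 bp to each side of a summit. The cdk-5 window held ATGCGC once, with its nearest base 120 bp upstream of the 5′ end, and GACGCA once, 46 bp upstream, with 68 bases between them on the same strand. ATGCGC was in 18.4% of the 125 thresholded windows, in 2.79% of the 30000 pooled windows and in 5.81% of protein-coding promoters (300 bases, from 250 before to 50 after the start). GACGCA was in 23.2%, 3.30% and 8.78% of the same sets. Windows with both made up 10 of the 125 thresholded peaks (8.0%) and 53 of the pooled regions (0.177%). Of the 20 highest peaks, 3 held both, with cdk-5 among them. These 6-mers were picked with their excess in the thresholded peaks known, so the shares are descriptions. The promoter sequences, of 300 bases, are longer than the windows around summits, so pooled and promoter shares are not compared in size. CGCGCA and ACGCAG, which recur in the thresholded peaks as well, were not in the cdk-5 window.

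In the authors' lists the cdk-5 peak was high in both replicates. Signal is the height of a peak as the authors scored it, in a unit that neither labels nor lists state, so signals from different lists are set side by side and not compared in size. Over both replicates together, in the pooled list, the signal was 75, and the peak (13466229 to 13466584) ranked 19 of 30000. Replicate 1 gave 39.0 and rank 33 of 30000, with the same summit. Replicate 2 gave 36.3 and rank 25, with a summit 10 bp farther upstream, and rank 16 among its nuclear regions. Both replicates therefore placed it among their 33 highest regions. The thresholded list was made from these same replicates, and cdk-5 was chosen for its peak there, so this is a description. Of the 125 pooled regions of the thresholded ranks, 102 (81.6%) had a summit within 100 bp in both replicates and 1 (0.8%) in neither. The −log10 q-value was 2.01 in the pooled list, the highest there and shared by 52 regions, 2.12 in replicate 1 and 0.635 in replicate 2, again the highest of each list.

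The peak's place among its neighbours in rank was well inside the threshold that the authors set by the irreproducible discovery rate, a measure of agreement between replicates. The peak just above, at rank 18, had a signal of 75.5 and T03G6.1 as nearest gene, and that just below, at rank 20, had 73.2 and eelo-2. The last thresholded peak, of rank 125, had a signal of 39.2, and the first region outside, of rank 126, had 38.8. In the ce10 build, 1 thresholded peak on chromosome III had a signal within 0.01% of the ce11 value, and it also ranked 19. The ce10 lists come from the same libraries, so this adds no evidence. The ce10 thresholded list held 103 peaks, against 125 in ce11. No coordinate was carried between builds.

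**Figure D1:**
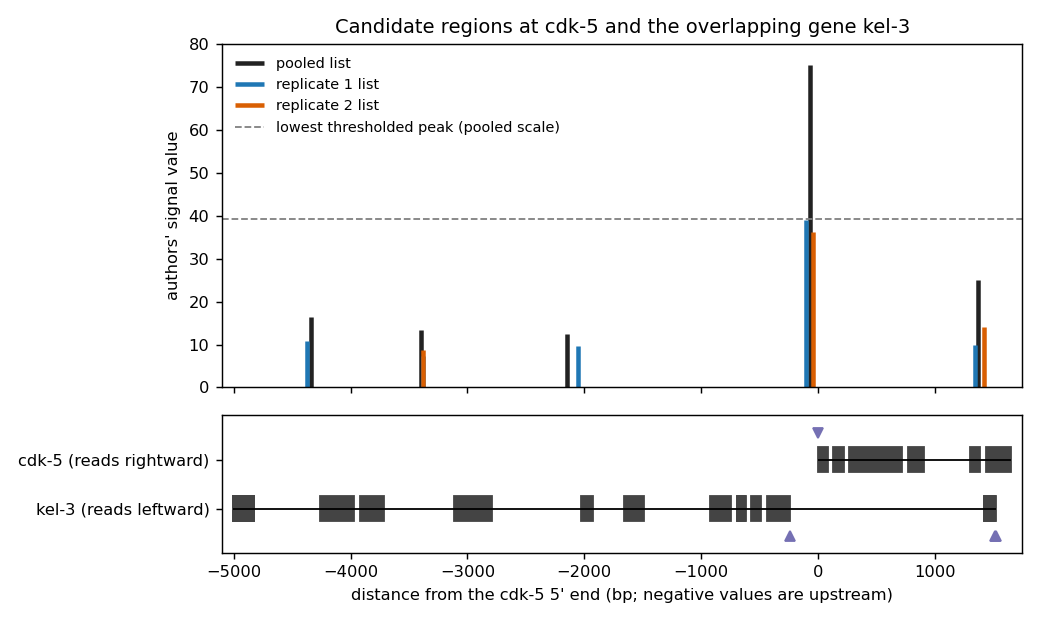
Authors' signal value (vertical axis) against distance from the cdk-5 5′ end in bp (horizontal axis) for the pooled and replicate lists, with replicate bars moved 35 bp aside for sight. Boxes below are exons and triangles are annotated transcript starts. The 3 bars at the cdk-5 start, of 75, 39.0 and 36.3, lie between the starts of cdk-5 and the shorter kel-3 transcripts.

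By gene 5′ ends, cdk-5 was the only gene whose promoter held this summit. As promoter counted the 2000 bp before a 5′ end and the first 500 bp after it. The summit lay 1587 bp downstream of the 5′ end of kel-3 as a gene, past the first 500 bp that counted. With the start of every transcript counted, an alternative chosen after seeing the data, the peak was in the promoters of both cdk-5 and kel-3. The data cannot give the peak to one or the other. A summit between divergent transcript starts no more than 1000 bp apart was found at 27 of the 125 thresholded peaks (21.6%) and at 565 of the 30000 pooled regions (1.88%).

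cdk-5 had the 1 thresholded region of the 4 genes. The window searched ran from 5000 bp upstream of the 5′ end to the 3′ end. A thresholded region was in that window for 1.18% of protein-coding genes and in the promoter for 0.671%. As cdk-5 was chosen for this peak, nothing is read from its count against these shares. The pooled list, which holds background as well as true peaks, had regions in the windows of all 4 genes, against 83.1% of protein-coding genes. All 4 also had one in the promoter, against 56.3%. Replicate 1 had a region in all 4 windows (84.5% of genes) and so did replicate 2 (85.1%). With most genes holding a candidate, these counts say little about the 4.

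**Figure D2:**
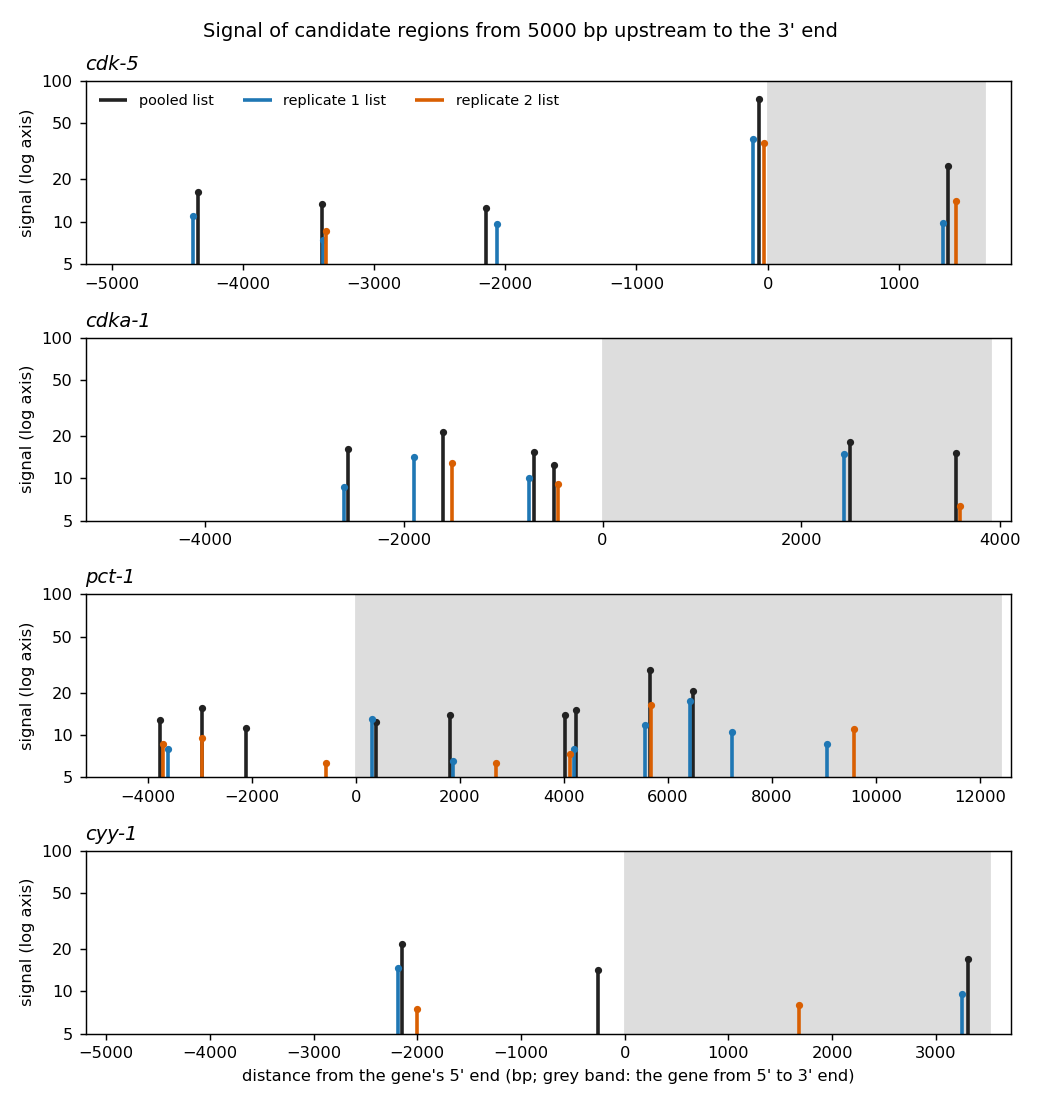
Signal (vertical log axis) of every candidate region of the pooled list and of each replicate's list, against distance from the gene's 5′ end in bp, 1 panel per gene with the gene in grey and replicate bars moved 45 bp aside. Outside the cdk-5 start no pooled bar passes 28.7.

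The genes differed in how many candidates they held. cdk-5 had 5 pooled regions in 6656 bp, or 0.751 per kb, and cdka-1 had 6 in 8909 bp, or 0.673 per kb. pct-1 had 9 in 17401 bp, or 0.517 per kb, and cyy-1 had 3 in 8526 bp, or 0.352 per kb. Over all protein-coding genes the median was 0.278 per kb, with quartiles of 0.142 and 0.419. In the pooled list the first 3 genes were above the upper quartile and cyy-1 was between the median and that quartile, and the 5 regions of cdk-5 include the peak that chose it. This order depended on the library. In the list of replicate 1 alone the densities were 0.751, 0.449, 0.460 and 0.235 per kb, with an upper quartile of 0.419 over all genes, so cyy-1 fell below the median of 0.277. In that of replicate 2 alone, with 3 regions each at cdk-5 and cdka-1, they were 0.451, 0.337, 0.402 and 0.235 per kb, with the same upper quartile, and cdk-5 alone was above it. Of the 23 regions together, 13 matched a replicate 1 summit within 100 bp, 10 a replicate 2 summit, 4 both and 4 neither. The shares, 56.5%, 43.5%, 17.4% and 17.4%, stood beside 47.0%, 46.1%, 14.4% and 21.3% of all pooled regions. Below the cdk-5 peak, the replicates therefore shared few of these candidates, as was so across the pooled list.

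The other cdk-5 candidates were weaker. The next one (13464792 to 13465147) lay in a coding exon of cdk-5, 1372 bp downstream of its 5′ end and 150 bp downstream of the kel-3 5′ end. The pooled signal was 25 (rank 1097), and the replicates gave 9.85 (rank 9818) and 14.1 (rank 2099). It was in the promoter of kel-3 and not in that of cdk-5. The remaining 3 had pooled signals of 12.5 to 16.4, all in kel-3 introns. The farthest upstream of cdk-5, at rank 9247, lay in the promoter of pssy-2, a gene of phosphatidylserine synthesis.

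pct-1 (WBGene00003961, chromosome IV, 8176482 to 8188882, plus strand) had the strongest candidate after the cdk-5 peak, inside a long intron. Its summit at 8182137 lay 5655 bp downstream of the first 5′ end and 2556 bp upstream of the start of the shortest coding transcript. The pooled signal was 28.7 (rank 480), with 11.8 in replicate 1 (rank 5062) and 16.3 in replicate 2 (rank 910). A second candidate in the same intron, 824 bp farther on and 1732 bp upstream of that start, had a pooled signal of 20.6 (rank 3191). It reached 17.4 in replicate 1 (rank 726) and had no region within 100 bp in replicate 2. The replicates thus ranked these neighbours differently. A pooled region of rank 1000 or better was in the windows of cdk-5 and pct-1, or 2 of the 4 genes, against 7.98% of protein-coding genes. The cdk-5 region is the one that chose the gene, and the pct-1 window, at 17401 bp, is longer than the median window of 7027 bp.

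The 300 bases around each of these summits are shown because they are the strongest pct-1 candidates (chrIV:8181988-8182287 and chrIV:8182812-8183111, plus strand). Capitals mark TAATC, the shorter form of the core, on either strand.
pct-1 intron, rank 480: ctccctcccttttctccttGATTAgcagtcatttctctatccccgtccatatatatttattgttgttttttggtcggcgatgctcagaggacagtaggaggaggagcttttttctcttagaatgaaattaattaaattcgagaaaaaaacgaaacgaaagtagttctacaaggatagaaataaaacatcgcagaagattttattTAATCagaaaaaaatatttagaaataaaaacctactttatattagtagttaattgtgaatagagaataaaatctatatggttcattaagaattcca
pct-1 intron, rank 3191: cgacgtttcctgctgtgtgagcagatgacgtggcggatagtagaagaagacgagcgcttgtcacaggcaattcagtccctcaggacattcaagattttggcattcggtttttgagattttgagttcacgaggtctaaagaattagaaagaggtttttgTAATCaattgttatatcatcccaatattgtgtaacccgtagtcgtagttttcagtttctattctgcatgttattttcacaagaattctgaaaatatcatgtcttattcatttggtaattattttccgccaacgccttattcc

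Neither stretch held TAATCC. Within 100 bp of the summit, TAATC was in both of these windows, and in 7 of the 23 windows of the 4 genes (30.4%), beside 36.0% of the thresholded and 31.5% of the pooled windows. It is part of every TAATCC, so the counts overlap. The other 7 pct-1 regions had pooled signals of at most 15.6, down to rank 27813. One of these, with its summit at 8176867, lay 385 bp downstream of the first 5′ end and 225 bp upstream of the next transcript start. Its pooled rank was 21746 (signal 12.4) and its rank in replicate 1 was 3247 (signal 13), while replicate 2 had none there.

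cdka-1 (WBGene00011955, chromosome III, 4658794 to 4662702, plus strand), the activator gene, had its highest candidate 1609 bp upstream of the 5′ end. Its pooled signal was 21.4 (rank 2627), replicate 2 gave 12.8 (rank 3460), and replicate 1 had no summit within 100 bp. The nearest replicate 1 region lay 1848 bp upstream of the 5′ end, with a signal of 14.1 (rank 2213). The pooled summit, at 4657185, was also in the promoter of T23F11.2, which is read the other way, as was that replicate 1 summit. Regions 692 bp and 492 bp upstream, with pooled signals of 15.3 and 12.4, were each matched in 1 replicate. Within the gene, an intronic region (pooled 18.2) was strongest in replicate 1, at 14.8 and rank 1686, and was not matched in replicate 2. No cdka-1 region was matched in both replicates.

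cyy-1 (WBGene00022697, chromosome III, 8405874 to 8409399, plus strand), the cyclin Y gene, had 3 candidates, each closer to another gene's 5′ end than to its own. The highest (pooled 21.8, rank 2426, replicate 1 14.7 and rank 1785) was 2150 bp upstream of cyy-1 and 117 bp upstream of cutc-1. Its summit lay in the promoters of cutc-1 and lap-1. The nearest replicate 2 summit, of signal 7.53 and rank 21370, lay 101 bp away, just outside the 100 bp that counted as a match. The region in the cyy-1 promoter, 254 bp upstream, was 58 bp upstream of ubxn-4, which is read the other way. It had a pooled signal of 14.3 (rank 14747) and was matched in neither replicate. The last, near the 3′ end (pooled 16.9), was 311 bp upstream of ZK353.9.

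**Figure D3:**
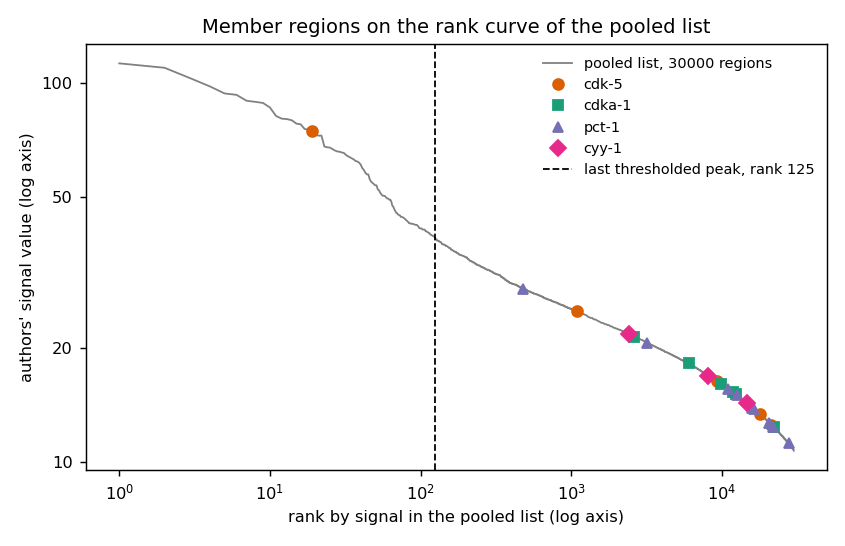
Signal against rank in the pooled list, both on log axes, with the 23 regions of the 4 genes marked on the grey curve of all 30000 regions. The cdk-5 peak at rank 19 is the one mark left of the last thresholded rank, 125.

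TAATCC was searched over the whole window of each gene. The 4 windows held 12 copies on both strands, 4 at cdk-5, 1 at cdka-1, 6 at pct-1 and 1 at cyy-1. Per kb these were 0.601, 0.112, 0.345 and 0.117, beside 0.366 in the nuclear genome. The copy nearest to the cdk-5 peak was 642 bp from its summit, inside the gene. Of the 12, 1 lay within 100 bp of a pooled summit, the one of rank 9247, in a coding exon of kel-3. It is shown as the single copy near a candidate (chrIII:13470573-13470602, minus strand, capitals for TAATCC).
kel-3 exon, TAATCC: tgcaactgcgaaTAATCCctcgttagttga

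Thus 1 of the 23 windows held TAATCC (4.35%), beside 12.8% of the thresholded and 7.18% of all pooled windows. The share was 9.37% in the promoter sequences described earlier. Those sequences are longer than the windows around summits, so pooled and promoter shares are not compared in size. With 23 windows, a count of 1 is near the share of the pooled list. At pct-1, a copy lay 198 bp upstream of the first 5′ end, where the nearest pooled summit was 583 bp away.

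The peaks most like that of cdk-5 were sought among peaks close upstream of genes. Likeness was the distance between log2 signals over the pooled list and both replicates' lists, so 3 values each. It was taken over the 52 thresholded peaks that lay 1 to 500 bp upstream of a protein-coding gene and had a summit within 100 bp in both replicates. The nearest were those of dld-1, for dihydrolipoamide dehydrogenase (distance 0.17), rps-1, of the small ribosomal subunit (0.30), and cox-5A, of cytochrome c oxidase (0.31). Y22D7AL.10 (0.36) and the peak upstream of fbxb-85 and hex-3 (0.45) followed. The dld-1 peak had signals of 75.8 pooled, 36.5 in replicate 1 and 40.1 in replicate 2. None of the 5 held TAATCC within 100 bp.

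No other gene of the related lists held a thresholded region in its window. This covered 21 genes of DD remodelling, 25 of synapse placement and axonal transport, 12 other cyclin-dependent kinases and inhibitors, and 13 other cyclins. Beside 1.18% of all genes, lists of this size would hold few or none. A pooled region of rank 1000 or better was in the windows of 1 of 21 (4.76%), 4 of 25 (16%), 2 of 12 (16.7%) and 1 of 13 (7.69%), beside 7.98% of all genes. Among genes with a pooled region, the median of the highest signal per gene was 20.4, 20.5, 17.8 and 18.4. It was 17.2 over all protein-coding genes with one. Genes without a region were left out of these medians. The median windows, of 9901, 12282, 8571 and 7713 bp, were longer than that of all genes, and their part in these values was not tested.

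Among the DD remodelling genes, dve-1, of a homeodomain protein needed to remove DD synapses, had a region 1507 bp upstream with a pooled signal of 33.1 (rank 242) and TAATCC within 100 bp. Replicate 1 gave 26.1 (rank 131), and replicate 2 had no match. Of the transport genes, jip-1, a scaffold for JNK signalling, had 37.6 (rank 141) at 1225 bp upstream, with 24.9 in replicate 1 and 10.2 in replicate 2. unc-76, a kinesin-linked gene of axon growth, had 37.1 (rank 151) in an intron, with 27.7 in replicate 1 and rank 6355 in replicate 2. unc-16, a motor scaffold gene, had 27.1 (rank 670) in an intron, with 16.5 and 7.72. dnc-1, of the dynactin complex, had 26.2 (rank 817), with 10.9 and 16.1, in the promoters of fic-1 and lgg-2 instead of its own. Those of jip-1, unc-76 and unc-16 ranked higher in replicate 1 than in replicate 2, and that of dnc-1 the other way round.

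Of the kinases, cdk-14 had a pooled signal of 31.8 (rank 300) at 2090 bp upstream, with 15.1 in replicate 2 and no match in replicate 1. cdk-7, of the kinase that activates other such kinases, had 27.5 (rank 614) at 1332 bp upstream, with 7.82 in replicate 1 and 14.7 in replicate 2, in a promoter shared with Y39G10AR.11. Of the cyclins, cye-1 (cyclin E) had 29.4 (rank 421) in an intron, with 7.55 and 20.3, in the promoter of pqn-21 and not in its own. The regions of cdk-7 and cye-1 ranked higher in replicate 2. No pooled region was in the windows of hbl-1, rpm-1, arl-8, syd-1, dhc-1, cdk-11.2 or cyb-3.

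**Figure D4:**
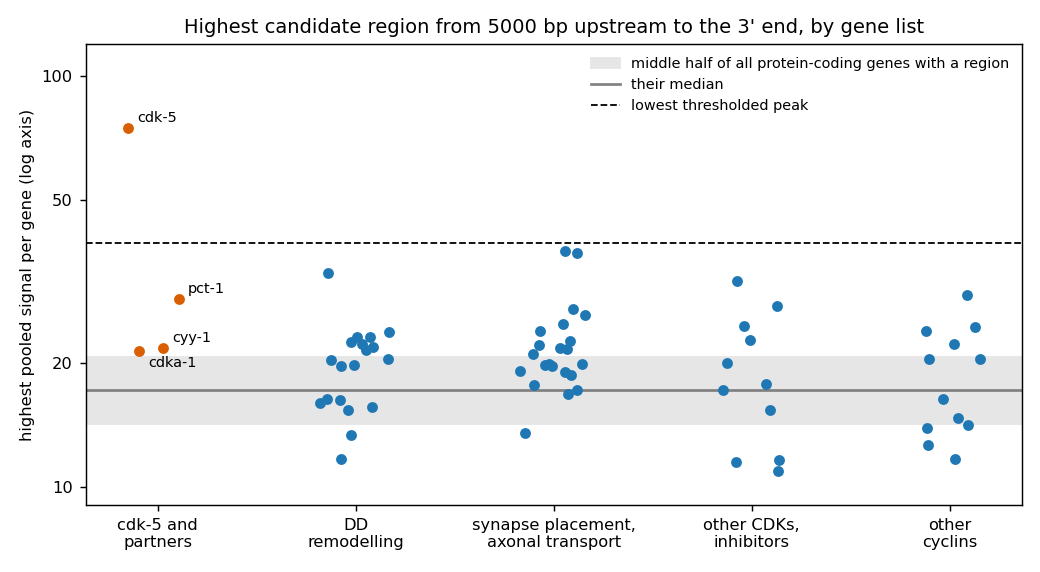
Highest pooled signal per gene (vertical log axis) for the 4 genes and the related lists, 1 point per gene with a region, sideways spread for sight only. The band is the range between the quartiles of all protein-coding genes with a region, 14.2 to 20.7. cdk-5 at 75 is the one point above the lowest thresholded peak, 39.2.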

How the data were processed

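UNC-30 ChIP-seq of 2 libraries was analysed from lists that the authors deposited in narrowPeak form. Per the accompanying file headers, each replicate's list came from its own alignments and 1 further file, the pooled list from both, and the thresholded list from these. Neither labels nor file lists name the peak caller, its settings or the threshold. Column 7 is the authors' signal, and column 9 a −log10 q-value as deposited. No list holds read counts, so depth is unknown, and there are no intervals.

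Regions of the ce11 lists were ranked by signal and assigned to genes by summit, with the RefSeq WBcel235 genome and Ensembl release 115 (Python 3.11.15, pandas 2.3.3). All regions lay within that genome's chromosome lengths. A region could belong to several genes. The ce10 lists served for 1 match by signal. Assignment was tested on simulated data. No test was run, since there is 1 group.

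The genes and lists were chosen with earlier results of these data known. Named were the 4 genes, list genes with a thresholded region or one of rank 1000 or better (up to 6 per list), genes sharing a promoter with the highest region, rank neighbours, and the 5 peaks most like that of cdk-5.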

Additional observations from a re-analysis of the deposited data

How the results depend on the processing

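All 4 genes had a pooled region with 2000 or 1000 bp upstream, by any overlap and at rank 5000 or better. All 4 also had a region in each replicate's own list, though not always at the same place: no cyy-1 region of replicate 2 matched a pooled one within 100 bp. With the nearest 5′ end only, 3 had one, and at rank 1000 or better 2. cdk-5 kept its thresholded region under the alternatives of span, overlap and nearest 5′ end, and both replicates held its summit within 50 and within 200 bp. With the summit 65 bp upstream and the replicate summits at most 10 bp from it, these settings could not change that outcome. No pooled list was rebuilt without a replicate, so each replicate's own list served instead. There the cdk-5 peak ranked 25 to 33, the same values as in the Results. Regions per gene in these lists numbered 3 to 5 for cdk-5, 3 to 4 for cdka-1, 7 to 8 for pct-1 and 2 for cyy-1. With 2000 bp upstream cdk-5 had 2. Counting transcript starts put its peak in 2 promoters. Within 50 bp of the summit 0 windows held TAATCC. At rank 500 or better the lists held 1 (DD remodelling), 2 (transport), 1 (kinases) and 1 (cyclins). With all regions they held 19, 22, 11 and 12, and in promoters only 1, 1, 1 and 0. Higher counts follow from the looser limits themselves. The lists held 0 thresholded regions also in promoters alone and at a −log10 q of 1.3 or more. No paired analysis was possible because there is 1 group. Depth is unknown and limits what a missing candidate means.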
